A study of Mus musculus with 9 samples.

Results

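The transporters that move bile acids, phospholipids and conjugated compounds across the 2 faces of the hepatocyte were followed in liver RNA-Seq of 9 mice. The 10 genes considered were Abcb11, Slc10a1, Abcc2, Abcc3, Abcc4, Abcc6, Abcb4, Atp8b1, Slc51a and Slc51b, and a gene entered when its value was above 0 in at least 1 liver. This held for 9 of the 10, out of 23183 genes in the tables and 16889 above 0 in at least 1 liver. Slc51a was listed at 0 in all 9 livers.

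All animals were male C57BL/6J mice of post natal day 100, and 3 livers were sequenced per group, with 1 library per mouse. The ND group (mice 6, 7 and 9) ate a normal diet with 14% fat. The HFD group (mice 1, 2 and 3) ate a diet with 60% fat for 10 weeks. The PRF 50 group (mice 3, 9 and 10) ate the same high-fat diet and was given 50 mg/kg of PRF by mouth every day in the last 5 weeks. PRF is a polymethoxyflavone-rich hexane fraction from leaves of the citrus Jinkyool, given in 0.5% carboxymethyl cellulose. Whether the ND and HFD mice were given this vehicle is not given in the sources used here. Tissue was taken after an 8 h fast. An oral glucose tolerance test was made on the final experimental day, and its time relative to tissue collection is not given in the sources used here. Mouse numbers identify animals inside their own group and give no pairs across groups.

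Hepatocytes take up bile acids from portal blood at the basolateral membrane, together with sodium, and export them into the canaliculus with ATP-driven pumps. Phospholipid transporters work beside these pumps, because lipid in bile protects the canalicular membrane from the detergent action of bile acids. A further set of transporters on the basolateral membrane returns bile acids, glucuronides and sulfates from the hepatocyte to blood, a route known to grow when bile flow is blocked.

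The values are log2(FPKM + 1), where FPKM is the number of fragments scaled by transcript length and by library size. Of the 8 hepatocyte markers examined, 7 had a mean of at least 1 FPKM, while albumin (Alb) was listed at 0 in all 9 livers. An exact 0 in these tables can therefore be a failed estimate, and the 0 of Slc51a is reported only as listed. The number of genes above 0 lay between 14372 and 14980 per liver. Relative depth, read from the most common ratio between low values, lay between 0.963 and 1.60 of that of HFD mouse 1. The deepest libraries were those of HFD mouse 3 (1.60) and PRF 50 mouse 9 (1.51), so the groups overlapped in depth.

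Differences between groups were tested with limma over all genes whose mean reached 1 FPKM over the 6 mice compared, and a gene is said to be called when its Benjamini-Hochberg adjusted p is under 0.05. Of the transporters, 8 reached this level in PRF 50 vs. HFD and 7 in the other comparisons. Abcc4 and Slc51a were below it throughout, and Slc51b reached it in PRF 50 vs. HFD alone.

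Between PRF 50 and HFD, 1 of the 8 tested transporters was called, Abcc3, where 3.59% of all 10084 tested genes were called. An unadjusted p under 0.05 was found for 2 of the 8, Abcc3 and Atp8b1, against 20.2% of all tested genes, and a fold change above 2 together with such a p for 0 of the 8, against 2.1%. On this rule Abcc3 missed the fold change of 2 by a margin that depends on the pseudocount, as given below. The groups did not overlap in 2 of the 8, against 26.2% of all tested genes. Between HFD and ND, limma called 0 of 7 transporters, against 1.33% of 9978 genes. There 2 of the 7, Abcb11 and Abcb4, had an unadjusted p under 0.05 (15.1% of all tested genes), and 0 also had a fold change above 2 (1.34%). The groups did not overlap in 1 of the 7 (20.7%). The PRF 50 vs. ND comparison called 1 of 7 transporters, again Abcc3, against 0.458% of 10051 genes. An unadjusted p under 0.05 was found for 2 of the 7 (12.5%), and for 1 of the 7 with a fold change above 2 (1.76%). The groups did not overlap in 3 of the 7, against 19.9% of all tested genes. Each group takes part in a pair of these comparisons, so they are not independent.

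The shares by an unadjusted p and by separation of the groups lie near those of all genes or rest on few transporters, and no shift of the transporters as a set was tested. Their median log2 fold change was -0.06 in PRF 50 vs. HFD, where that of all tested genes was -0.02. It was -0.01 for both in HFD vs. ND, and in PRF 50 vs. ND it was -0.06 for the transporters and -0.03 for all tested genes. With 3 mice a group, each p-value sets a difference between groups against the spread between these mice, which limma adjusts by the spread of the other genes. A p that misses the threshold does not show that the values were equal.

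**Figure D1:**
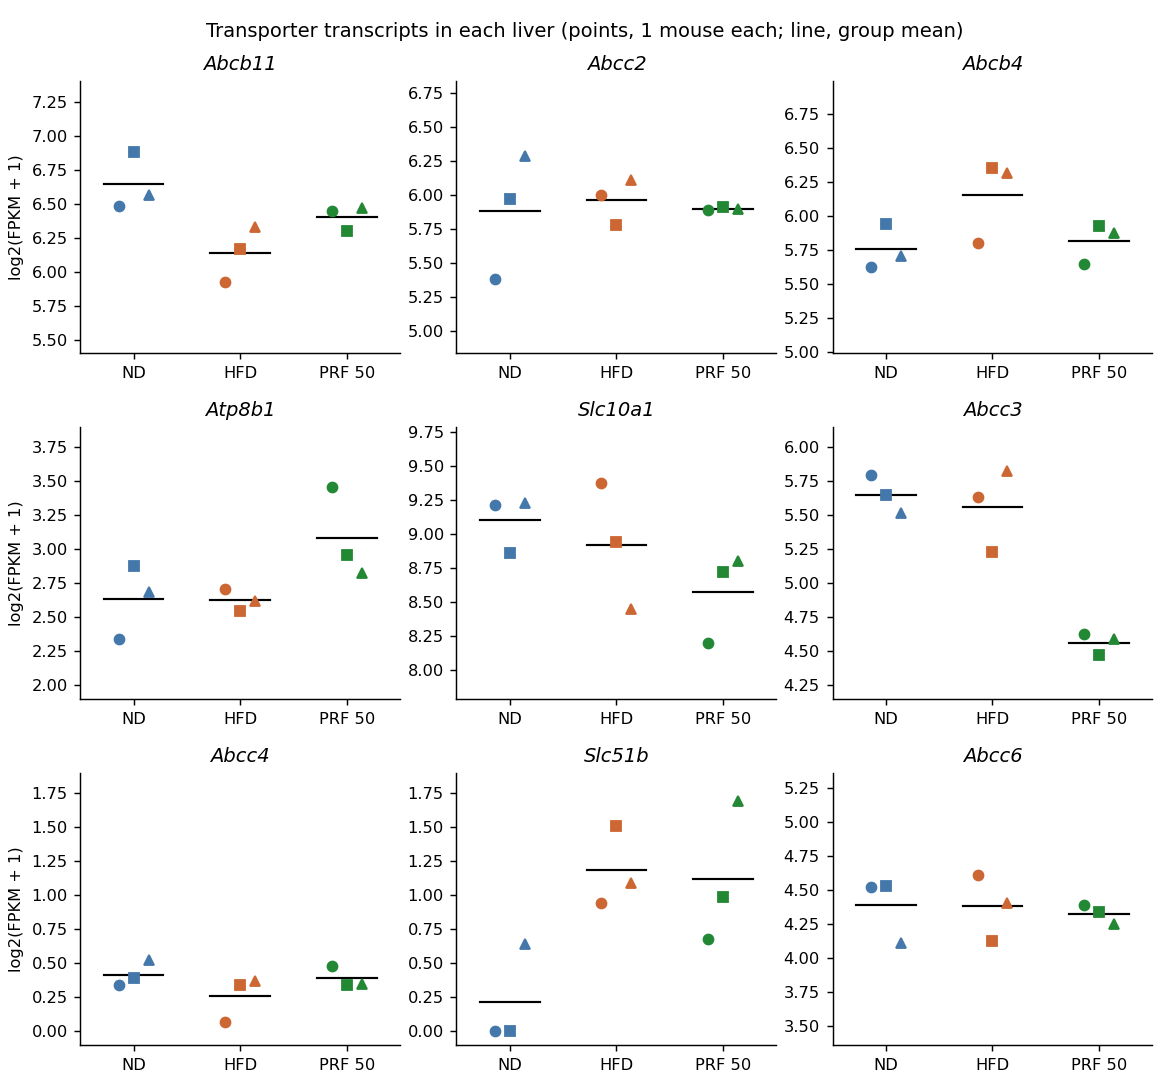
log2(FPKM + 1) of the 9 transporters above 0, with 1 point per mouse (circle, square and triangle in the order of the mouse numbers in each group) and a line at the group mean; each panel has its own range. In Abcc3 the PRF 50 mice lay between 4.47 and 4.62, below the lowest of the other mice at 5.23.

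Abcc3 (GRCm38 chromosome 11, 94343295 to 94392997, minus strand) encodes the multidrug resistance-associated protein MRP3, which carries glucuronides and bile acids from the hepatocyte back to blood. On the log2 scale, Abcc3 was 5.79, 5.64 and 5.51 in ND mice 6, 7 and 9. In HFD mice 1, 2 and 3 it was 5.63, 5.23 and 5.82, and in PRF 50 mice 3, 9 and 10 it was 4.62, 4.47 and 4.59. The ND and HFD mice overlapped, and all 3 PRF 50 mice lay below all of the other 6. In FPKM, the means were 49.3 ± 4.80 (SD, n = 3) for ND, 46.8 ± 9.64 for HFD and 22.6 ± 1.30 for PRF 50.

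Abcc3 fell in both comparisons that involve PRF. Its log2 fold change was -0.998 in PRF 50 vs. HFD (95% interval -1.35 to -0.64, standard error 0.15, adjusted p = 0.0249 in limma). With a pseudocount of 0.1 in place of 1 it was -1.03 (adjusted p = 0.0252 in limma, 0.0102 to 0.0710 over its alternatives), so that whether it passes a fold change of 2 depends on the pseudocount. It was -1.09 in PRF 50 vs. ND (95% interval -1.35 to -0.83, standard error 0.11, adjusted p = 0.0128 in limma). Ordered by p, Abcc3 was number 102 of 10084 tested genes in the former and number 10 of 10051 in the latter. Its log2 fold change in HFD vs. ND was -0.09 (95% interval -0.47 to 0.29, adjusted p = 0.835 in limma).

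The size of the Abcc3 difference moved little when a mouse was left out, while the call often did not pass. For PRF 50 vs. HFD the adjusted p in limma was 0.0526 without HFD mouse 1, 0.0681 without HFD mouse 3, 0.0710 without PRF 50 mouse 3, 0.0533 without PRF 50 mouse 9 and 0.0525 without PRF 50 mouse 10. It was 0.0288 without HFD mouse 2, which had the lowest HFD value, and 0.0102 with all 9 mice in 1 fit. For PRF 50 vs. ND the adjusted p was 0.0747 without ND mouse 7 and 0.0618 without PRF 50 mouse 3. Over the 13 alternatives the log2 fold change stayed between -1.16 and -0.87 in PRF 50 vs. HFD, with an adjusted p between 0.0102 and 0.0710, and 7 of the 13 kept the call. For PRF 50 vs. ND it stayed between -1.15 and -1.01, with an adjusted p between 0.00623 and 0.0747, and 11 of the 13 kept the call.

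**Figure D2:**
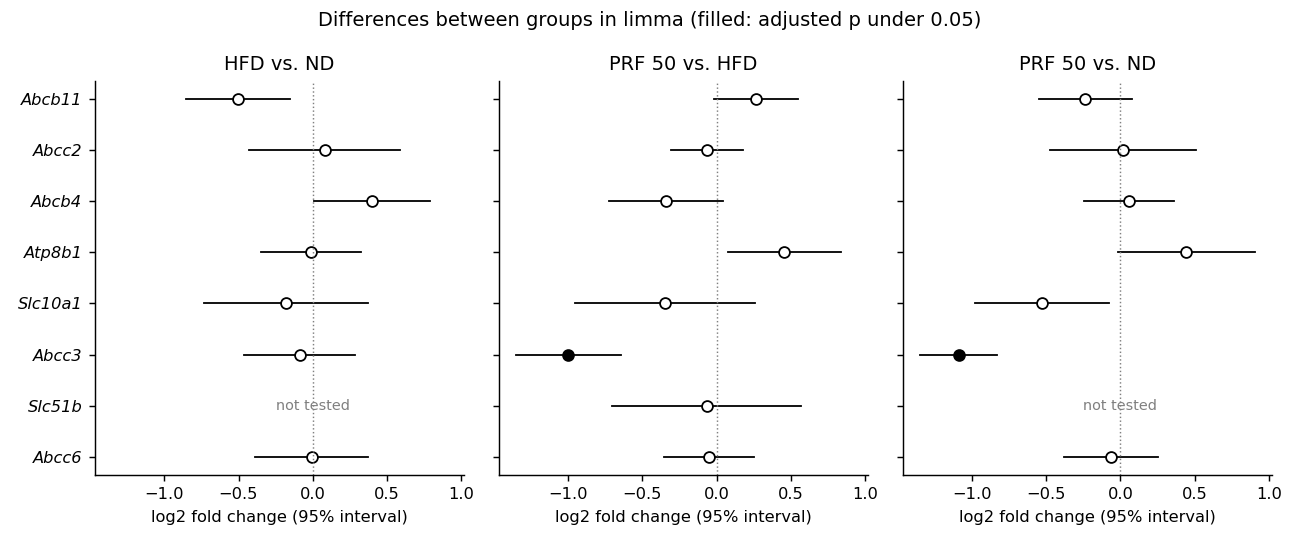
log2 fold changes of the tested transporters in HFD vs. ND, PRF 50 vs. HFD and PRF 50 vs. ND, with 95% intervals from limma; filled points have an adjusted p under 0.05. Filled points appear for Abcc3 alone, at -0.998 in PRF 50 vs. HFD and -1.09 in PRF 50 vs. ND.

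Abcc2, on the canalicular side, encodes MRP2 and carries many of the same conjugates as Abcc3, but into bile. Its log2 values were 5.39, 5.97 and 6.29 in the ND mice, 6.00, 5.78 and 6.11 in the HFD mice, and 5.89, 5.91 and 5.90 in the PRF 50 mice. The 3 groups overlapped, and the PRF 50 mice were nearly equal (SD 0.01). The log2 fold change of Abcc2 in PRF 50 vs. HFD was -0.06 (95% interval -0.30 to 0.18, adjusted p = 0.790 in limma), and its sign changed in 2 of the 13 alternatives.

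Within a mouse, the level of Abcc2 can be set against that of Abcc3 on the FPKM scale, which accounts for length. The ratio of Abcc2 to Abcc3 was 0.753, 1.26 and 1.73 in ND mice 6, 7 and 9, and 1.30, 1.48 and 1.23 in HFD mice 1, 2 and 3. It was 2.47, 2.80 and 2.54 in PRF 50 mice 3, 9 and 10. The ratio was thus higher in each PRF 50 mouse than in any other mouse. This ratio was chosen after the values had been seen and was not tested.

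Abcb11 (chromosome 2, 69238282 to 69342616, minus strand) encodes the bile salt export pump, the main exporter of bile acids into the canaliculus. Its log2 values were 6.48, 6.88 and 6.57 in the ND mice, 5.92, 6.17 and 6.33 in the HFD mice, and 6.45, 6.30 and 6.47 in the PRF 50 mice. All HFD mice and all PRF 50 mice lay below all ND mice, while the HFD and PRF 50 mice overlapped. The log2 fold change in HFD vs. ND was -0.50 (95% interval -0.85 to -0.15, adjusted p = 0.189 in limma), so that it was not called. It was -0.24 in PRF 50 vs. ND (adjusted p = 0.504 in limma) and 0.27 in PRF 50 vs. HFD (adjusted p = 0.283 in limma).

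Abcb4 and Atp8b1 serve the phospholipids of the canalicular membrane. Abcb4 (chromosome 5, 8893717 to 8959231, plus strand) encodes the MDR2 floppase, which delivers phosphatidylcholine to bile. It was 5.63, 5.94 and 5.71 in the ND mice, 5.80, 6.36 and 6.31 in the HFD mice, and 5.65, 5.93 and 5.87 in the PRF 50 mice. HFD mice 2 and 3 were higher than all other mice, and HFD mouse 1 lay among the ND and PRF 50 mice. The log2 fold change was 0.40 in HFD vs. ND (95% interval 0.01 to 0.79, adjusted p = 0.325 in limma) and -0.34 in PRF 50 vs. HFD (95% interval -0.73 to 0.04, adjusted p = 0.304 in limma).

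Atp8b1 encodes the flippase FIC1, which returns phosphatidylserine and related lipids to the inner leaflet and keeps the membrane in order. On the log2 scale it was 2.34, 2.88 and 2.68 in the ND mice, 2.71, 2.54 and 2.62 in the HFD mice, and 3.45, 2.95 and 2.82 in the PRF 50 mice. The PRF 50 mice lay above all HFD mice, and they overlapped the ND mice through ND mouse 7. Its log2 fold change was 0.46 in PRF 50 vs. HFD (95% interval 0.07 to 0.84, adjusted p = 0.177 in limma) and 0.45 in PRF 50 vs. ND (adjusted p = 0.412 in limma). A list of 12 partners of the canalicular transporters held membrane anchors, subunits, trafficking and tight-junction proteins. All 12 were tested, and limma called 0 of them in each comparison, with 0 at an unadjusted p under 0.05 as well. In PRF 50 vs. HFD, HFD vs. ND and PRF 50 vs. ND, 3.59%, 1.33% and 0.458% of all tested genes were called. Such an unadjusted p was found for 20.2%, 15.1% and 12.5% of all tested genes. The groups did not overlap in 1 of the 12 in each comparison, against 26.2%, 20.7% and 19.9% of all tested genes.

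Slc10a1 (chromosome 12, 80953183 to 80968705, minus strand) encodes the sodium-taurocholate cotransporter NTCP, the main entry of conjugated bile acids from blood. It was 9.22, 8.86 and 9.23 in the ND mice, 9.38, 8.95 and 8.45 in the HFD mice, and 8.20, 8.72 and 8.80 in the PRF 50 mice. The PRF 50 mice lay below all ND mice, and the HFD mice spanned nearly the whole range. The log2 fold change in PRF 50 vs. ND was -0.53 (95% interval -0.98 to -0.07, adjusted p = 0.327 in limma), and in PRF 50 vs. HFD it was -0.35 (95% interval -0.95 to 0.26, adjusted p = 0.510 in limma).

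The remaining basolateral exporters were low. Abcc4, which encodes MRP4 and exports bile acids together with glutathione, lay between 0.07 and 0.52 on the log2 scale in the 9 livers, with its lowest value in HFD mouse 1. Slc51b encodes the beta subunit of the organic solute transporter, which needs the alpha subunit encoded by Slc51a to work. Slc51b was listed at 0 in ND mice 6 and 7 and was 0.64 in ND mouse 9. It was 0.95, 1.51 and 1.09 in the HFD mice and 0.68, 0.98 and 1.69 in the PRF 50 mice. Every HFD and PRF 50 value thus lay above every ND value, at low levels. The 0 of ND mice 6 and 7 can be a failed estimate, and ND mouse 9 (0.64) was close to PRF 50 mouse 3 (0.68). Slc51b was tested in PRF 50 vs. HFD only (log2 fold change -0.07, adjusted p = 0.924 in limma). With no minimum level, the adjusted p was 0.181 in HFD vs. ND and 0.334 in PRF 50 vs. ND in limma.

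Slc51b lies on chromosome 9 (65412714 to 65422955, minus strand) and shares sequence with Rasl12 on the other strand, whose level was at most 0.0997 FPKM. Slc51a overlaps Pcyt1a on the other strand (at most 25.6 FPKM). The library kit keeps the strand, but whether the authors used strand in estimating FPKM is not given in the sources used here, so a share of reads from the opposite gene cannot be told apart.

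Abcc6, which encodes MRP6, a basolateral protein needed for the release of ATP from the liver rather than for bile acid transport, served as a family member outside these routes. On the log2 scale it was 4.52, 4.53 and 4.11 in the ND mice, 4.61, 4.13 and 4.40 in the HFD mice, and 4.39, 4.34 and 4.25 in the PRF 50 mice. The 3 groups overlapped. Its log2 fold changes were -0.05 in PRF 50 vs. HFD (95% interval -0.36 to 0.25) and -0.06 in PRF 50 vs. ND (95% interval -0.38 to 0.26), each smaller than the spread between mice.

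On the FPKM scale, which allows levels of different genes to be compared, Slc10a1 had the highest level of the transporters in every liver, from 293.9 to 663.2 FPKM. Abcb11 followed with ND (99.6 ± 15.2, SD, n = 3) and with PRF 50 (83.9 ± 5.39), apart from the next gene in each. In HFD mice the levels of Abcb4 (71.4 ± 14.5), Abcb11 (70.0 ± 9.92) and Abcc2 (61.6 ± 7.21) did not differ beyond their spread. Abcc2, Abcb4 and Abcc3 overlapped in the ND group (59.9 ± 18.2, 53.4 ± 6.34 and 49.3 ± 4.80 FPKM). In the PRF 50 group Abcc2 (58.7 ± 0.410) and Abcb4 (55.6 ± 5.70) overlapped, and Abcc3 (22.6 ± 1.30) stood apart below them, just above Abcc6 (19.1 ± 0.986).

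Below these stood Abcc6, at 20.1 ± 3.33 FPKM with ND and 20.0 ± 3.52 with HFD, and then Atp8b1, at 5.27 ± 1.15 FPKM with ND, 5.16 ± 0.353 with HFD and 7.59 ± 2.07 with PRF 50. Both were apart from the genes next to them in each group. Slc51b and Abcc4 came last of the genes above 0. They overlapped in the ND group, and Slc51b was above Abcc4 in all HFD and PRF 50 mice.

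Summed over each route, the canalicular exporters Abcb11 and Abcc2 had 129.2, 178.6 and 170.9 FPKM in the ND mice, 122.6, 124.6 and 147.6 in the HFD mice, and 144.6, 136.9 and 146.4 in the PRF 50 mice. The 3 groups overlapped. The basolateral efflux genes Abcc3, Abcc4, Slc51a and Slc51b had 54.5, 49.2 and 45.6 FPKM in the ND mice, 49.4, 38.5 and 56.9 in the HFD mice, and 24.63, 22.39 and 25.55 in the PRF 50 mice. Of this sum as listed, with Slc51a at a 0 that can be a failed estimate, Abcc3 made up between 90.2% and 99.5%. For phospholipid transport, the sum of Abcb4 and Atp8b1 ranged from 52.5 to 66.9 FPKM in the ND mice, from 60.3 to 85.8 in the HFD mice, and from 59.0 to 66.7 in the PRF 50 mice.

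**Figure D3:**
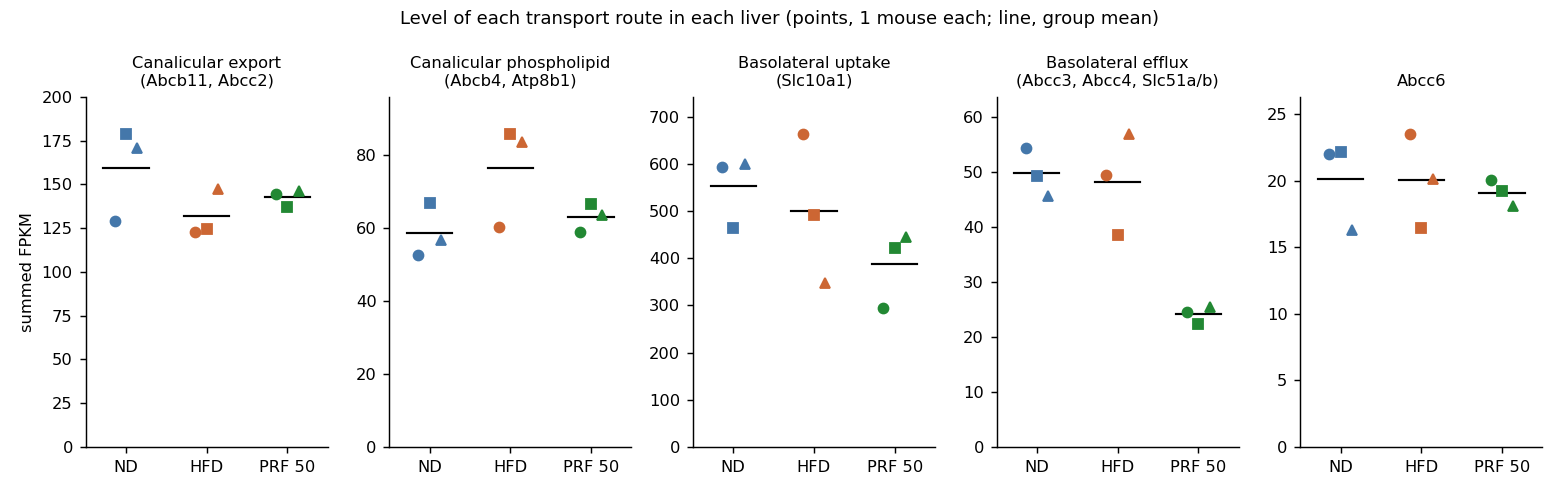
Summed FPKM of the genes of each transport route in each liver, with 1 point per mouse and a line at the group mean; each panel starts at 0 and has its own range. The basolateral efflux sum was 24.2 ± 1.62 with PRF 50, 48.3 ± 9.24 with HFD and 49.8 ± 4.45 with ND (SD, n = 3).

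Among the transporters with a mean of at least 1 FPKM, Abcc3, Slc10a1 and Abcb11 had the widest range of group means on the log2 scale. The genes with the most similar and most opposite patterns over the 9 livers were looked up among 10047 others with a mean of at least 1 FPKM. For Abcc3 the highest Pearson's r were those of Car3 (0.99), which encodes the cytosolic carbonic anhydrase CA3, of Trap1 (0.96), a mitochondrial chaperone, and of Wdr12 (0.96), a ribosome assembly factor. Car3 was 11.27, 11.00 and 10.81 in the ND mice, 11.13, 10.75 and 11.23 in the HFD mice, and 9.60, 9.66 and 9.75 in the PRF 50 mice. Like Abcc3, Car3 had its 3 lowest values in the PRF 50 mice. Over the 6 ND and HFD mice alone, r was 0.92 for Car3, 0.86 for Trap1 and 0.85 for Wdr12. These 6 livers are part of the 9 by which the genes were chosen, so these r are not independent of that choice.

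The most opposite patterns to Abcc3 were those of Csf2ra (r = -0.98), the alpha chain of the receptor for granulocyte-macrophage colony-stimulating factor, and Pilrb1 (r = -0.97), an activating receptor of myeloid cells. Csf2ra was 0.925, 1.003 and 1.235 in the ND mice, 1.002, 1.298 and 0.980 in the HFD mice, and 1.76, 1.71 and 1.74 in the PRF 50 mice. Its PRF 50 values lay above all others. For Slc10a1 the highest r were those of Foxj3 (0.93), Rdh13 (0.93) and Adprm (0.93), and Iqsec1 had an r of -0.94. For Abcb11 the highest were those of Gstm3 (0.94), Nup188 (0.92) and Lsm5 (0.92), and the lowest those of Rhobtb1 (-0.95) and Cyp17a1 (-0.93). The highest and lowest of so many coefficients over 9 livers are extreme by selection, and they are given as a description.

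Markers of other cells are set beside Abcc3. Of 8 markers of Kupffer cells and macrophages, all 8 had their 3 highest values in the PRF 50 mice. The groups did not overlap in 26.2% of all tested genes in PRF 50 vs. HFD and in 19.9% in PRF 50 vs. ND. Limma called 6 of the 8 in PRF 50 vs. HFD, against 3.59% of all tested genes. It called 0 in PRF 50 vs. ND, where all 8 had an unadjusted p under 0.05 (12.5% of all tested genes). Leaving out HFD mouse 2, HFD mouse 3 or PRF 50 mouse 3 took away each of these 6 calls (adjusted p 0.0529 to 0.103 in limma), and leaving out HFD mouse 1, PRF 50 mouse 9 or PRF 50 mouse 10 took away some of them (0.0501 to 0.0701). With all 9 mice in 1 fit, Adgre1 (0.0603), Clec4f (0.0605) and Vsig4 (0.05002) were not called, and with no minimum level Vsig4 alone of the 6 was called. Their summed level was 72.4, 134.3 and 189.0 FPKM in the ND mice, 92.6, 160.9 and 159.5 in the HFD mice, and 539.9, 293.6 and 354.6 in the PRF 50 mice. On average over the 9 livers the most abundant was Cd5l, at 18.2 to 42.5 FPKM in the ND mice, 21.2 to 42.1 in the HFD mice and 77.3 to 129.0 in the PRF 50 mice, while Lyz2 was above it in ND mouse 9, HFD mice 1 and 2 and PRF 50 mouse 3. None of the 8 was at 0 in all livers. The summed hepatocyte markers, of which Apoa1 was the most abundant, had means of 16485 ± 3664 FPKM (SD, n = 3) for ND, 16648 ± 3034 for HFD and 16880 ± 427 for PRF 50. Limma called 0 of 7 tested hepatocyte markers in PRF 50 vs. HFD, with 1 at an unadjusted p under 0.05 (20.2% of all tested genes). Ttr (log2 fold change -0.62, adjusted p = 0.0865 in limma) and Apob (-0.20, adjusted p = 0.347 in limma) had all PRF 50 values below all HFD values. These were the 2 of the 7 without overlap, against 26.2% of all tested genes. In bulk liver, fewer cells of a type and less RNA per cell cannot be told apart, and the part of the macrophage transcripts in the Abcc3 difference was not tested.

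**Figure D4:**
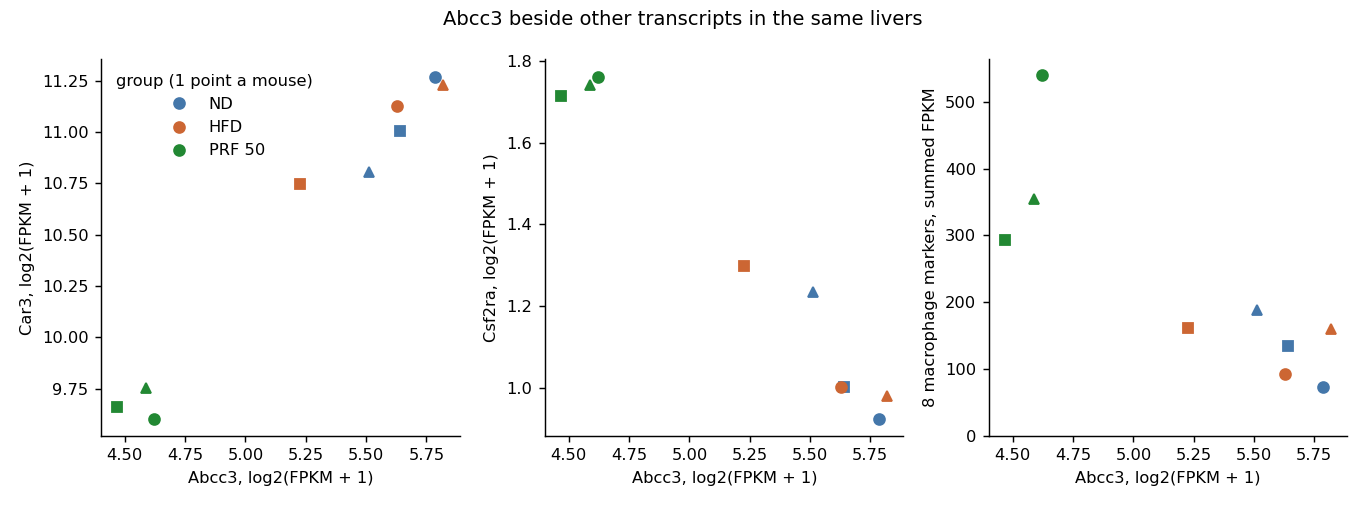
Abcc3 on the log2(FPKM + 1) scale (horizontal) beside Car3 and Csf2ra on the same scale and beside the summed FPKM of 8 macrophage markers, with 1 point per mouse colored by group. The 3 PRF 50 mice stand apart from the ND and HFD mice in each panel, with macrophage sums of 293.6 to 539.9 against 72.4 to 189.0 in the others.

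Bile duct cells also express Abcc3, and their markers were low. Of 12 cholangiocyte markers, 3 had a mean of at least 1 FPKM and none was at 0 in all livers. Their sum was 33.0 to 37.6 FPKM in the ND mice, 37.3 to 51.1 in the HFD mice and 46.1 to 60.5 in the PRF 50 mice, most of it from Spp1 (22.6 to 38.0 FPKM), which other cells express as well. Limma called 0 of the 4 tested in PRF 50 vs. HFD, 0 of 3 in HFD vs. ND and 0 of 5 in PRF 50 vs. ND. An unadjusted p under 0.05 was found for 0, 1 and 3 of them, all higher, against 20.2%, 15.1% and 12.5% of all tested genes. The groups did not overlap in 0, 1 and 2, against 26.2%, 20.7% and 19.9% of all tested genes. The part of bile duct cells in the Abcc3 values was not tested. Endothelial markers summed to between 24.2 FPKM in HFD mouse 1 and 107.2 in ND mouse 9 (most abundant, Clec4g), and stellate cell markers to between 92.1 and 188.8 (Dcn), with overlap of the groups in both sums. Limma called 0 of the 8 endothelial markers in each comparison, with an unadjusted p under 0.05 for 1 higher in PRF 50 vs. HFD, 2 lower in HFD vs. ND and 0 in PRF 50 vs. ND. It also called 0 of the stellate cell markers in each comparison (8, 8 and 7 tested), with 2 of them at an unadjusted p under 0.05 and without overlap, lower, in PRF 50 vs. HFD, 2 higher in HFD vs. ND and 0 in PRF 50 vs. ND. Lymphocyte markers (most abundant, Nkg7) summed to 1.58 to 1.76 FPKM in the HFD mice, below the ND mice (2.59 to 5.27) and the PRF 50 mice (2.21 to 5.31). None of them reached the minimum to be tested. Kidney tubule markers summed to at most 0.0907 (Lrp2, with Slc5a2 and Kap at 0). The erythroid sum lay between 85.6 and 227.8 FPKM (Hba-a1). The adipocyte sum was 15.9 and 23.8 FPKM in HFD mice 2 and 3 and between 4.66 and 8.81 in the other 7 mice (most abundant on average Lipe, with Lep and Plin1 at 0). Cfd was also highest in HFD mice 2 and 3 (2.86 and 3.85 on the log2 scale, at most 1.37 in the others), and Adipoq was above 0 in these 2 livers only. Retn, on the same list, was at 0 in both and above 0 in ND mouse 7 only (0.67). HFD mice 2 and 3 are the livers with the highest Abcb4, and the part of adipocyte transcripts in the Abcb4 values was not tested. Of the enterocyte markers, Lct, Fabp6 and Alpi were at 0 in all livers. The sum of that list was that of Apoa4, a gene that the liver also expresses, with 57.8 to 110.9 FPKM in the ND mice, 380.5 to 839.7 in the HFD mice and 96.6 to 185.6 in the PRF 50 mice.

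Receptors that sense bile acids and xenobiotics were examined beside the transporters, on a list of 17 of which 15 were tested. Between PRF 50 and HFD, 4 of the 15 had an unadjusted p under 0.05 (20.2% of all tested genes). Of these, 2 were called, both lower, against 3.59% of all tested genes. These were Nr1i3, which encodes the constitutive androstane receptor CAR (log2 fold change -0.93, adjusted p = 0.0336 in limma), and Nr1i2, which encodes the pregnane X receptor PXR (-0.67, adjusted p = 0.0369 in limma). Nr1i3 was 5.65, 5.28 and 5.05 in the ND mice, 6.23, 5.71 and 6.22 in the HFD mice, and 5.06, 5.32 and 4.97 in the PRF 50 mice. The PRF 50 mice lay below all HFD mice and overlapped the ND mice. In Abcc3 the PRF 50 mice lay below both groups, and a link between Nr1i3 and Abcc3 was not tested. The log2 fold changes of Nr1i3 and Nr1i2 in PRF 50 vs. ND were -0.21 and -0.20 (adjusted p = 0.650 and 0.566 in limma). Nr1i3 was not called without HFD mouse 1 (adjusted p = 0.0732 in limma), HFD mouse 3 (0.115), PRF 50 mouse 3 (0.0951) or PRF 50 mouse 10 (0.0760), and Nr1i2 was not called when any 1 of the 6 mice was left out (0.0572 to 0.124). With no minimum level neither was called (0.0704 for both), nor was Nr1i3 with quantile normalization (0.0524).

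The bile acid receptor FXR (Nr1h4) lay between 5.92 and 6.53 in the 9 livers, with log2 fold changes of -0.17 in PRF 50 vs. HFD (adjusted p = 0.599 in limma) and -0.03 in HFD vs. ND (adjusted p = 0.934 in limma). Nr0b2, the gene of the repressor SHP that FXR induces, lay between 4.28 and 5.97, with -0.45 in PRF 50 vs. HFD (adjusted p = 0.339 in limma). Nfe2l2, the gene of the transcription factor NRF2, had -0.31 in PRF 50 vs. HFD (adjusted p = 0.351 in limma). Ppara, the gene of the fatty acid receptor PPARalpha, was 5.684, 5.496 and 5.777 in the ND mice, 6.18, 6.26 and 6.27 in the HFD mice, and 5.67, 5.99 and 5.49 in the PRF 50 mice. Its HFD values lay above all others, and its log2 fold changes of 0.59 in HFD vs. ND (adjusted p = 0.0521 in limma) and -0.52 in PRF 50 vs. HFD (adjusted p = 0.0830 in limma) were not called. Without PRF 50 mouse 9 the adjusted p of Ppara in PRF 50 vs. HFD was 0.0397 in limma (0.0397 to 0.217 over its alternatives). With a minimum of 10 FPKM it was 0.0408 in HFD vs. ND (0.0408 to 0.228 over its alternatives). Between HFD and ND, 1 of the 15 genes was called (1.33% of all tested genes), and 7 had an unadjusted p under 0.05 (15.1%). The called gene was Fgfr4, the receptor for the intestinal signal that restrains bile acid synthesis (-0.59, adjusted p = 0.0309 in limma). When any 1 of the 6 mice was left out, Fgfr4 was not called (adjusted p 0.0555 to 0.137 in limma), nor with all 9 mice in 1 fit (0.0559) or with no minimum level (0.0819). For PRF 50 vs. ND limma called 0 of the 15, with 1 at an unadjusted p under 0.05 (12.5% of all tested genes).

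Genes taken as targets of such receptors were on a further list. Of 17 such genes, 13 were tested in PRF 50 vs. HFD, and 4 were called, all lower (3.59% of all tested genes). An unadjusted p under 0.05 was found for 10 of the 13, with 9 lower and 1 higher (20.2% of all tested genes). The 4 called were the PPARalpha targets Cyp4a14 (log2 fold change -5.36), Cyp4a10 (-4.05) and Acot1 (-2.49), and the cytochrome P450 gene Cyp2b9 (-6.00). Their adjusted p lay between 0.000458 and 0.0235 in limma. Reads may be shared with close relatives of each, so their single values are uncertain. Without HFD mouse 2 or HFD mouse 3, only Cyp2b9 of these 4 was called, with adjusted p in limma of 0.0567 and 0.0539 for Cyp4a14, 0.0804 and 0.0799 for Cyp4a10, and 0.0537 and 0.0529 for Acot1. Cyp4a10 was also not called without PRF 50 mouse 3 (0.0611) or PRF 50 mouse 10 (0.0522), or with no minimum level (0.0578). The HFD vs. ND comparison called 4 of 16, against 1.33% of all tested genes. Cyp2b9 (5.52) and Cyp4a14 (1.76) were higher, and Cyp3a11 (-2.60) and Cyp2c55 (-1.999) were lower. Each of these was also called when any 1 of the 6 mice was left out. With all 9 mice in 1 fit Cyp4a14 was not called in HFD vs. ND (adjusted p = 0.164 in limma, 0.00503 to 0.164 over its alternatives). Cyp2b10, on the same list, went the other way from Cyp2b9 in HFD vs. ND (-1.28, adjusted p = 0.0584 in limma) and was not called. It was 1.94, 1.73 and 0.95 in the ND mice and 0.26, 0.12 and 0.39 in the HFD mice, without overlap. For PRF 50 vs. ND, 2 of 15 were called, Cyp3a11 (-4.20) and Cyp2c55 (-2.05), both lower, against 0.458% of all tested genes. Cyp3a11 was not called there without ND mouse 7 (adjusted p = 0.0683 in limma), nor Cyp2c55 without ND mouse 6 (0.0778), ND mouse 7 (0.0747) or PRF 50 mouse 9 (0.0510). The number called there was 1 without ND mouse 6, 0 without ND mouse 7, 4 without ND mouse 9 and 3 without PRF 50 mouse 9. It was 7 with all 9 mice in 1 fit, 3 with a pseudocount of 0.1 and 1 with no minimum level, where Cyp2c55 was not called (0.0777). Cyp3a11, the main PXR target of the list, was 11.78, 11.70 and 11.30 in the ND mice, 9.12, 8.81 and 9.04 in the HFD mice, and 7.60, 6.51 and 8.07 in the PRF 50 mice. Its 3 groups did not overlap, in a downward order from ND through HFD to PRF 50, and the step from HFD to PRF 50 was not called (log2 fold change -1.60, adjusted p = 0.0610 in limma). The ND and HFD mice overlapped in Abcc3, and a link between Cyp3a11 and Abcc3 was not tested.

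Among 10 other canalicular exporters, 8 were tested in PRF 50 vs. HFD and 2 were called, both lower (3.59% of all tested genes). An unadjusted p under 0.05 was found for 5 of the 8, all lower, against 20.2% of all tested genes, and the groups did not overlap in 5, all lower, against 26.2%. Aqp8, the gene of a water channel of the canalicular membrane, was 6.39, 6.61 and 7.27 in the ND mice, 6.73, 7.26 and 6.59 in the HFD mice, and 6.11, 5.45 and 5.67 in the PRF 50 mice. All PRF 50 mice lay below all others. Its log2 fold change was -1.12 in PRF 50 vs. HFD (adjusted p = 0.0425 in limma) and -1.01 in PRF 50 vs. ND (adjusted p = 0.159 in limma). Abcb1a, a gene of the drug pump P-glycoprotein, had -0.75 in PRF 50 vs. HFD (adjusted p = 0.0257 in limma), at 0.91 ± 0.13 with PRF 50, 1.66 ± 0.10 with HFD and 0.96 ± 0.21 with ND (SD, n = 3). Neither was called when any of the 6 mice was left out, with adjusted p in limma of 0.0575 to 0.106 for Aqp8 and 0.0512 to 0.0920 for Abcb1a, while 1 other gene of the list was called without PRF 50 mouse 9. With no minimum level Aqp8 (0.0837) and Abcb1a (0.0506) were not called, nor was Aqp8 with quantile normalization (0.0692). Between HFD and ND limma called 0 of 8, and 1 without ND mouse 9, with 2 of the 8 at an unadjusted p under 0.05 (15.1% of all tested genes). Between PRF 50 and ND limma called 0 of 7, with 3 at an unadjusted p under 0.05 (12.5% of all tested genes).

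Of 12 other basolateral transporters, 9 were tested. Limma called 0 in PRF 50 vs. HFD and 0 in HFD vs. ND, where 3 and 2 had an unadjusted p under 0.05. The shares of all tested genes with such a p were 20.2% and 15.1%. The PRF 50 vs. ND comparison called 2 of the 9, in opposite directions, against 0.458% of all tested genes. Slco1a4, an organic anion uptake carrier, was 5.13, 4.72 and 4.67 in the ND mice, 5.11, 3.81 and 3.98 in the HFD mice, and 3.16, 3.57 and 3.65 in the PRF 50 mice, and fell by 1.38 in PRF 50 vs. ND on the log2 scale (adjusted p = 0.0245 in limma). Slc22a7, the organic anion transporter OAT2, was 3.98, 3.76 and 4.08 in the ND mice, 4.24, 4.81 and 4.31 in the HFD mice, and 4.90, 4.75 and 4.95 in the PRF 50 mice, and rose by 0.93 (adjusted p = 0.0269 in limma). Slco1a4 was not called without ND mouse 6 (adjusted p = 0.0896 in limma), ND mouse 7 (0.0945), PRF 50 mouse 3 (0.0722) or PRF 50 mouse 9 (0.0590). Slc22a7 was not called without ND mouse 6 (0.0995), ND mouse 7 (0.111), PRF 50 mouse 3 (0.130), PRF 50 mouse 9 (0.0577) or PRF 50 mouse 10 (0.0514). With no minimum level Slco1a4 (0.0940) and Slc22a7 (0.0777) were not called, nor was Slco1a4 with all 9 mice in 1 fit (0.0636). HFD mouse 1 stood with the ND mice in Slco1a4.

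Enzymes that make the conjugates carried by Abcc2 and Abcc3 were tested on a list of 13. Limma called 0 of the 13 in PRF 50 vs. HFD, and 1 with a minimum of 10 FPKM. An unadjusted p under 0.05 was found for 3 of the 13 at the usual minimum of 1 FPKM, against 20.2% of all tested genes. Between PRF 50 and ND 1 was called (0.458% of all tested genes), Ugdh, the enzyme that supplies UDP-glucuronic acid. It was 6.66, 6.77 and 6.24 in the ND mice, 6.06, 5.86 and 6.30 in the HFD mice, and 5.49, 5.60 and 5.45 in the PRF 50 mice. The PRF 50 mice lay below all others, and the log2 fold change of Ugdh was -1.04 in PRF 50 vs. ND (adjusted p = 0.0426 in limma) and -0.56 in PRF 50 vs. HFD (adjusted p = 0.0559 in limma). For HFD vs. ND the glucuronosyltransferase genes Ugt2b1 (-0.98, adjusted p = 0.0140 in limma) and Ugt2b35 (-0.76, adjusted p = 0.0330 in limma) were called, both lower (1.33% of all tested genes). Ugdh was called without ND mouse 9, and it was not called when ND mouse 6 or 7 or PRF 50 mouse 3, 9 or 10 was left out, where the adjusted p in limma was 0.0713 to 0.156. Ugt2b1 was not called without HFD mouse 2 (0.0694), HFD mouse 3 (0.0777) or ND mouse 7 (0.0579), nor with all 9 mice in 1 fit (0.145). Ugt2b35 was called without ND mouse 9 and not without HFD mouse 1, 2 or 3 or ND mouse 6 or 7 (0.0543 to 0.146). It was also not called with all 9 mice in 1 fit (0.0657) or with no minimum level (0.0821), nor was Ugdh with no minimum level (0.104) or quantile normalization (0.0522).

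All 17 genes of a list of bile acid synthesis were tested, and 4 were called in PRF 50 vs. HFD (3.59% of all tested genes), 2 in each direction. Cyp7b1, of the alternative pathway, was 6.73, 6.75 and 6.51 in the ND mice, 5.34, 5.65 and 5.45 in the HFD mice, and 6.84, 6.18 and 7.23 in the PRF 50 mice. The HFD mice lay below all others in Cyp7b1. Its log2 fold change was -1.19 in HFD vs. ND (adjusted p = 0.00731 in limma) and 1.27 in PRF 50 vs. HFD (adjusted p = 0.0414 in limma). The former was the 1 call of the list in HFD vs. ND, against 1.33% of all tested genes. Cyp2c70, which makes the muricholic acids of mice, had 0.75 in PRF 50 vs. HFD (adjusted p = 0.0294 in limma). Akr1d1 (-0.56, adjusted p = 0.0411 in limma) and Hsd17b4 (-0.60, adjusted p = 0.0365 in limma), of the later steps of synthesis, were lower. These 4 calls were lost without HFD mouse 2, HFD mouse 3, PRF 50 mouse 3 or PRF 50 mouse 10 (adjusted p 0.0501 to 0.138 in limma). Without HFD mouse 1, Cyp7b1 (0.0970) and Akr1d1 (0.0815) were not called, and without PRF 50 mouse 9 Akr1d1 (0.0805) was not. With no minimum level none of the 4 was called (0.0580 to 0.0836), nor were Akr1d1 (0.0787) and Hsd17b4 (0.108) with quantile normalization. The call of Cyp7b1 in HFD vs. ND was kept when any of the 6 mice was left out.

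Cyp7a1, the first enzyme of the classic pathway, varied widely within groups, with 4.38, 5.07 and 5.76 in the ND mice, 5.31, 4.22 and 5.03 in the HFD mice, and 4.69, 6.64 and 6.24 in the PRF 50 mice. It was not called in any comparison, and PRF 50 mouse 3 was apart from the other mice of its group. For PRF 50 vs. ND limma called 0 of the 17 genes, with 0 at an unadjusted p under 0.05. The groups did not overlap in 3 of the 17, with PRF 50 higher in 1 and lower in 2, against 19.9% of all tested genes.

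Promoter sequences were looked up in the RefSeq table (GRCm38.p6), which held 7 of the 10 transporters. Abcc3, Abcc6 and Atp8b1 had no entry. In the 250 bases before the start, searched on both strands, the nuclear receptor motif AGGTCA was found in 5 of the 9 promoters of these 7 genes (1 each of Abcb11, Abcc2, Slc10a1, Slc51a and Slc51b) and in 14.02% of all 32851 promoters. Pairs of this motif, which hold it by construction, were found in 0 of the 9. These were the inverted repeat AGGTCANTGACCT (0.00609% of all promoters), the direct repeat AGGTCANAGGTCA (0.0335%) and the direct repeat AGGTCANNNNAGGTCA (0.0152%). TGACNNNGC, the core of the antioxidant response element, was found in 3 of the 9 promoters, of Abcc2 and Abcc4 (10.2% of all promoters), and GCGTG, the core bound by the aryl hydrocarbon receptor, in 3 of the 9, of Abcb11, Abcb4 and Abcc4 (28.2%). A match says only that these letters are present in this window.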

How the data were processed

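Poly(A)-selected liver RNA was sequenced with a directional kit. Reads were aligned to mm10 by the authors with TopHat after trimming, and FPKM was estimated with Cufflinks. The authors also name a geometric normalization with EdgeR. The deposited values are on a log2 scale and were read as log2(FPKM + 1). The pseudocount of 1 is inferred from a lowest value of 0. Read counts were not used here, so counting error is unknown. No value above 0 was identical between any 2 libraries.

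Each comparison was fitted on 6 mice with limma 3.58.1 in R 4.3.3 (lmFit and eBayes with a trend), over genes whose mean reached 1 FPKM, with Benjamini-Hochberg adjustment over all genes tested. All adjusted p-values are from limma. The steps were tested on simulated data. A log2 fold change understates the change of low genes because of the pseudocount. Genes named from the pathway lists are those with an adjusted p under 0.05 (at most 6 per list and comparison), with Nr1h4, Nr0b2, Nr1i2, Nr1i3, Ppara, Nfe2l2 and Cyp7a1 in addition. Marker genes were named by their level or after their values were seen. The members and lists were chosen with earlier results of these data known. Alternatives to the mice, pseudocount, minimum, scaling and variance trend were tried. Positions are from GENCODE M21 on GRCm38 and promoters from RefSeq. Of the genes with patterns like or opposite to those of transporters, 1 is not reported here.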

Additional observations from a re-analysis of the deposited data

How the results depend on the processing

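The alternatives were to leave out each mouse, to fit all 9 mice together, to use a pseudocount of 0.1, to drop the minimum or raise it to 10 FPKM, to rescale by quantiles or by median ratios, and to run eBayes without a trend. Over the 22 tested log2 fold changes of transporters, 274 of 282 values kept their side of the threshold, but most of these were not called in the main fit. The other 8, all of Abcc3, lost the call with the same direction. Only the calls of Abcc3 could be lost. They were kept in 7 of 13 alternatives in PRF 50 vs. HFD and in 11 of 13 in PRF 50 vs. ND. No transporter gained a call. In PRF 50 vs. HFD the number of transporters called was 0 with no minimum level, where the adjusted p of Abcc3 was 0.0566 in limma (0.0102 to 0.0710 over its alternatives), and between 0 and 1 when a mouse was left out. In PRF 50 vs. ND it was between 0 and 1 when a mouse was left out. The number of genes called in PRF 50 vs. HFD (362) became 126 with no minimum level and lay between 15 and 242 when a mouse was left out. In HFD vs. ND (133) it became 37 with no minimum level and lay between 35 and 140. In PRF 50 vs. ND (46) it became 107 with all 9 mice in 1 fit and 11 with no minimum level, and lay between 4 and 71. With no minimum level more genes enter the adjustment, and leaving out a mouse leaves fewer mice in the fit. Some counts rose all the same, in HFD vs. ND to 140 without HFD mouse 1. In PRF 50 vs. ND they rose to 59 without ND mouse 9 and 71 without PRF 50 mouse 10. Why the counts moved was not tested. The median-of-ratios factors lay between 0.998 and 1.01. Abcc4 and Slc51b were left out by the minimum in most fits, and their low values are the least certain. No paired analysis was made because the mouse numbers give no pairs across groups.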
